A study of Homo sapiens with 6 samples.

Results

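Heat shock proteins are the chaperones that hold, fold and refold other proteins. The genes described here are 10 of the 57773 in the deposited table, chosen by symbol: the cytosolic HSP70 genes HSPA1A, HSPA1B and HSPA8, the HSP110 genes HSPA4 and HSPH1, the cytosolic HSP90 genes HSP90AA1 and HSP90AB1, the small heat shock protein gene HSPB1, and the mitochondrial chaperonin genes HSPD1 and HSPE1. They were picked with earlier results of the knockdown against control comparison in view, so their differences between the groups are a description and carry no test. RNA was taken from HEK293, a long-established line grown from human embryonic kidney, as 3 libraries labelled TRDMT1 gene knockdown and 3 labelled control. TRDMT1, also called DNMT2, methylates cytosine in certain tRNAs. The labels give no agent, clone or duration for the knockdown and no separate cultures, so the spread between libraries may be technical.

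HSP70 proteins bind short hydrophobic stretches of unfolded clients in a cycle driven by ATP, with J-domain proteins as partners that load clients and HSP110 proteins as exchange factors that release ADP. HSP90 acts later on near-folded clients such as kinases and steroid receptors, and the small heat shock proteins hold unfolded proteins without ATP. HSPD1 and HSPE1 form the barrel and the lid of the mitochondrial folding chamber. Many of these genes are induced by the transcription factor HSF1, which binds heat shock elements, inverted repeats of the letters nGAAn.

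The libraries labelled knockdown held 36455950 to 40088993 counts and those labelled control 24776040 to 26802182. TRDMT1 stood at 0.58 RPKM (reads per kilobase and per library total, scaled by the authors) in each library labelled knockdown and at 0.28 to 0.36 in those labelled control, against the label, and the names of the table's columns go against the titles too. Groups are therefore named here by their labels alone. Whether the labels were exchanged was not tested, and every fold change and direction below would turn sign if they were. Control replicate 2 stood apart from the other 5 libraries, with processed pseudogenes taking 2.51% of its counts against 0.895% to 1.16% elsewhere. Values without that library are given beside the results it moved. The HEK293 markers VIM, KRT8, KRT18, NEFL, LHX1 and PAX2 were present in all 6 libraries, from 0.91 RPKM for PAX2 in control replicate 2 upward. PTPRC, CD3E and MYOD1, of leukocytes, T cells and muscle, stood at 0.11 RPKM or less, the hepatocyte gene ALB at 0.02 to 0.20, and the fibroblast gene COL1A2 at 0.34 to 0.40 in the libraries labelled knockdown and was listed at 0 in those labelled control.

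The upstream sequences of 7 of the genes are shown because they match the letters of at least a pair of heat shock element units. They are the 250 bases before a RefSeq start site on GRCh38.p14, a build other than the hg19 named for the deposited table, and the capitals mark matches to the head-to-head pair GAANNTTC, the tail-to-tail pair TTCNNGAA or a run of 3 units, in which GAA, TTC and GAA, or TTC, GAA and TTC on the other strand, follow each other with 2 free bases between them. Both pairs read the same on either strand, and each run of 3 units contains both pairs.
HSPA1A chr6:31815293-31815542 plus strand: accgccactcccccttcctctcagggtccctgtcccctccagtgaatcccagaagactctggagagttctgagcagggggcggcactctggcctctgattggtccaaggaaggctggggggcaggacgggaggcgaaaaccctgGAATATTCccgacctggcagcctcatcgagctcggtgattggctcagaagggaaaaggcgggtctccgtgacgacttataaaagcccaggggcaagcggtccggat
HSPA1B chr6:31827488-31827737 plus strand: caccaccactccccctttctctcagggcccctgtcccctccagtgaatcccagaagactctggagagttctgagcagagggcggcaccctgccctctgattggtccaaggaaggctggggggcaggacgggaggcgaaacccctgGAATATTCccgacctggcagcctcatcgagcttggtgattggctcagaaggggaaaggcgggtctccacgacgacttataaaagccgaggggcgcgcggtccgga
HSPA8 chr11:123062137-123062386 minus strand: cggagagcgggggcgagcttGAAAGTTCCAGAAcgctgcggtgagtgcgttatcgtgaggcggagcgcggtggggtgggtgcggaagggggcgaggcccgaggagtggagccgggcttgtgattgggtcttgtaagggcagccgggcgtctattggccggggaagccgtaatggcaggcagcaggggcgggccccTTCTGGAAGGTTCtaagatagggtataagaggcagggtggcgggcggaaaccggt
HSP90AA1 chr14:102087045-102087294 minus strand: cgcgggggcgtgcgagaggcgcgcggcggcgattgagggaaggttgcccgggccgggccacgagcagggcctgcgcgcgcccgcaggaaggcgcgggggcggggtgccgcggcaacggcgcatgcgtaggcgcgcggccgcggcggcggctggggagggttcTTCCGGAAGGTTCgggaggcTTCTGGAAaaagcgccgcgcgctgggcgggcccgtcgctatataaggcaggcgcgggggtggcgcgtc
HSP90AB1 chr6:44247693-44247942 plus strand: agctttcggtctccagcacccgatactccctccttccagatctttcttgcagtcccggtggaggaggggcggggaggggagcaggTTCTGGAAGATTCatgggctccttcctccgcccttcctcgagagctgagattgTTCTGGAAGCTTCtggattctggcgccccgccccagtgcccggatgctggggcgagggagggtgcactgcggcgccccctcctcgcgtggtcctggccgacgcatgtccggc
HSPB1 chr7:76302423-76302672 plus strand: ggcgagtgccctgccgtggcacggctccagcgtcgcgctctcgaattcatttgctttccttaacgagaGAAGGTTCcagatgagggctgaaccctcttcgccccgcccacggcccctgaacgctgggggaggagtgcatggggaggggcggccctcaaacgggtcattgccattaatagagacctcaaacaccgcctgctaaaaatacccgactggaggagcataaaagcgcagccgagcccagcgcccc
HSPD1 chr2:197499841-197500090 minus strand: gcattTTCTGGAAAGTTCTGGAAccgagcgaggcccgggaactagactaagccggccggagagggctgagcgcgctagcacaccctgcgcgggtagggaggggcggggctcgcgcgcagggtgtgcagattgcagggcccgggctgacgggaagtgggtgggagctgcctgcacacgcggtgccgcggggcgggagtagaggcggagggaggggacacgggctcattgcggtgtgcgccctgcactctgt

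HSPA8 and HSP90AB1 each held 2 separate runs of 3 units, at −230 to −218 and −55 to −43 bases from the start site in HSPA8 and at −165 to −153 and −112 to −100 in HSP90AB1. HSP90AA1 held 1 run, at −88 to −76, with a further tail-to-tail pair at −68 to −61. In HSPD1 2 runs overlapped, from −245 to −228. That window lies between the start sites of HSPD1 and HSPE1, which are transcribed away from each other. HSPA1A and HSPA1B shared the pair GAATATTC and a TATAAA box, and their 250 bases were 93.6% identical. HSPB1 held the pair GAAGGTTC. No match was found in the windows of HSPA4, HSPH1 or HSPE1, in the second windows of HSP90AA1 and HSPD1, or in the other two windows of HSP90AB1. Among 35116 RefSeq promoter windows of 300 bases, searched on both strands, the run of 3 units was present in 0.49%, the head-to-head pair in 6.77%, the tail-to-tail pair in 7.74% and TATAAA in 11.5%. All 10 genes had at least 1 window in that set, 14 in all. A match describes letters and does not show that HSF1 was bound.

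**Figure D1:**
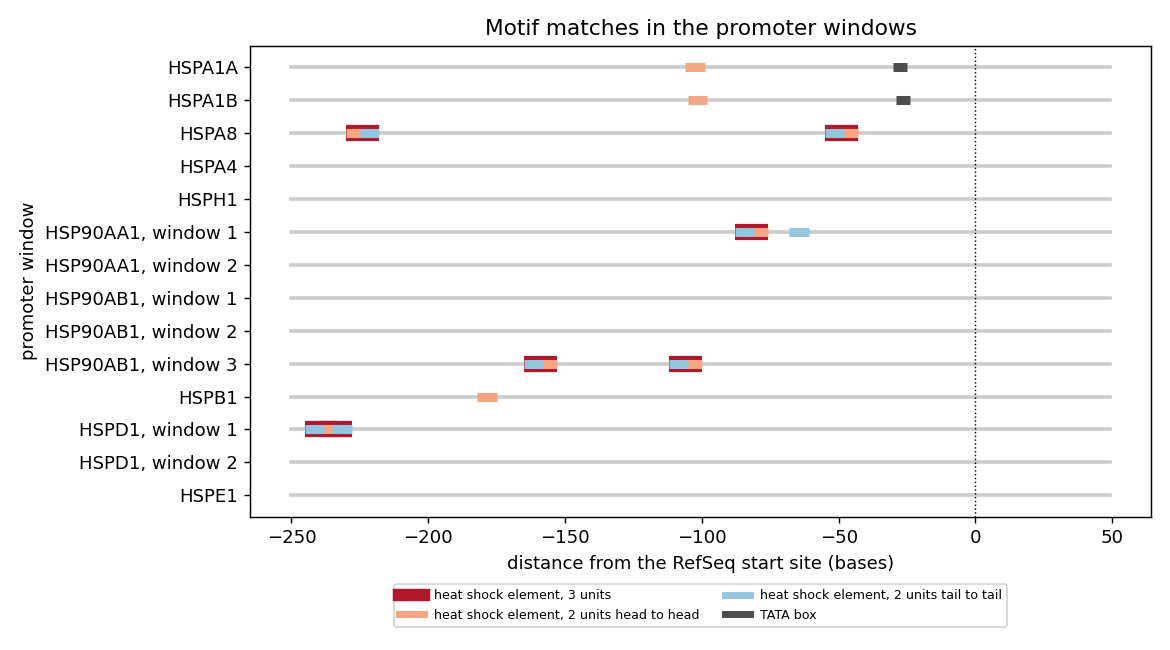
Positions of motif matches in the 14 RefSeq promoter windows of the 10 genes; the x axis is the distance from the start site in bases and each grey line is 1 window. Runs of 3 units lie in HSPA8, HSP90AA1, HSP90AB1 and HSPD1, and the TATAAA match lies close to the start sites of HSPA1A and HSPA1B.

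Most of these chaperone genes stood lower in the libraries labelled knockdown, while HSP90AB1 did not. Of all counts, the 10 genes together took 1.07%, 0.697% and 0.973% in the libraries labelled control and 0.579%, 0.562% and 0.556% in those labelled knockdown, replicates 1 to 3 in each. Control replicate 2 was nearest to the libraries labelled knockdown, and the groups did not overlap. In RNA from whole cultures, fewer cells that express a gene and less RNA per cell cannot be told apart.

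Counts were compared across all genes with edgeR's quasi-likelihood test, as log2 fold changes of the libraries labelled knockdown minus those labelled control, ± standard error. Of the 10 genes 9 passed the filter on low counts and HSPA1A did not, and HSPA1B passed through the control libraries alone, so a count over these 9 is not a count over all 10. The fit called 7 of the 9 lower at an adjusted p of 0.05 (14.7% of the 17805 genes tested were called lower, and 24.0% in either direction). HSPA1B was among the 7, and HSPA4 and HSP90AB1 were not called. The groups did not overlap for 8 of the 9 on TMM-scaled CPM (26.0% of all genes tested lay apart in that direction). The median log2 fold change was −0.91 over the 9 genes and −0.04 over all genes tested. Without control replicate 2 the fit called 9 of 10 lower (25.6% of all genes), with trends in transcript base composition and length removed 5 of 9 (11.2%), by DESeq2 9 of 10 (15.3%), against plain library totals 4 of 9 (9.26%), and with the replicate number as a block 6 of 9 (10.5%). On log RPKM by limma-trend it was 3 of 9 with a pseudocount of 1 (8.58%) and 4 of 9 with 0.1 (8.59%). Without knockdown replicate 1, 2 or 3 it was 1, 3 and 1 of 10 (5.12%, 5.43% and 4.96%), and without control replicate 1 or 3 it was 4 and 6 of 9 (7.32% and 16.8%). In both fits that called 9 of 10, HSPA1A and HSPA1B were among the 9. HSPH1, HSP90AA1 and HSPD1 were not called against plain library totals, by limma-trend or without control replicate 1. With any 1 library labelled knockdown left out, these genes and HSPA8 were not called. HSPA1B and HSPB1 were not called without knockdown replicate 1 or 3, nor was HSPA1B by limma-trend with a pseudocount of 1. HSPE1 alone was called lower in every fit. HSPD1 was also the gene lost with the block. Since this contrast was in view when the genes were chosen, nothing is read from these counts.

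**Figure D2:**
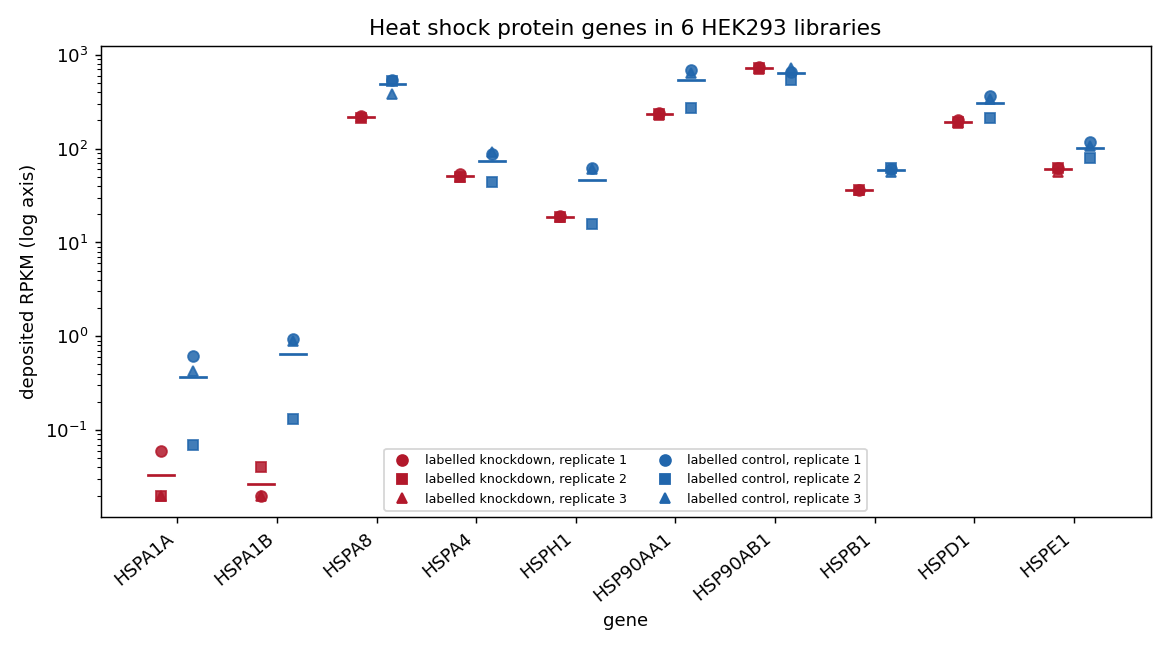
Deposited RPKM of each gene in each library on a log axis; colours give the labelled group, marker shapes the replicate and horizontal lines the group mean of 3 libraries. HSP90AB1 stands between 545.79 and 736.83 RPKM in all 6 libraries, and control replicate 2 is the lowest control library for HSPH1 at 15.59.

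HSPA8, the constitutive HSC70 that also uncoats clathrin vesicles, was the abundant cytosolic HSP70 of these cells. HSPA8 stood at 221.82, 214.61 and 219.20 RPKM in the libraries labelled knockdown and at 538.86, 532.47 and 386.12 RPKM in those labelled control. Every control library lay above every library labelled knockdown, control replicate 2 included. The log2 fold change was −1.35 ± 0.24, a 2.55-fold difference, and it was −1.16 ± 0.13 without control replicate 2 and −1.30 ± 0.22 with trends in transcript base composition and length removed. HSPA8 lies on chromosome 11, where the median of 787 tested protein-coding genes was 0.31, so it differed in the opposite direction from its chromosome.

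HSPA1A and HSPA1B, the stress-inducible HSP70 pair, were near the lower limit of detection. HSPA1A had 39, 4 and 28 counts in the libraries labelled control, against 5, 2 and 2 in those labelled knockdown. HSPA1B had 62, 8 and 61 counts against 2, 4 and 2. Control replicates 1 and 3 were high for both genes, and control replicate 2 was the lowest control library. For HSPA1A the 95% Wilson interval of control replicate 2 was 0.0628 to 0.415 CPM of the library total. It overlapped that of each library labelled knockdown, the highest being 0.0586 to 0.321 in knockdown replicate 1. For HSPA1B the interval of control replicate 2, 0.164 to 0.637, also overlapped each of them. These ran from 0.0137 to 0.182 in knockdown replicate 3 up to 0.0423 to 0.28 in knockdown replicate 2.

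Summed over libraries, HSPA1A was 11.5-fold higher in the libraries labelled control (exact 95% interval 5.7 to 26.1, counting error only), and 2.03-fold higher in control replicate 2 alone (0.457 to 7.28). HSPA1B was 23.8-fold higher (11.7 to 56.2), and 4.57-fold higher in control replicate 2 alone (1.5 to 14.0). Control replicates 1 and 3 thus carried most of the difference of this pair. The fitted value for HSPA1B was −4.58 ± 0.78, −0.65 on log2(RPKM + 1) and −2.29 on log2(RPKM + 0.1), a spread that comes from the pseudocount at such low levels. The longest GENCODE 29 transcripts of HSPA1A and HSPA1B were 89.1% identical end to end. Of the 50-base words of HSPA1A 72.6% also occurred in HSPA1B, so reads of the pair could be split or discarded in counting, and both levels are uncertain.

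HSPA4 and HSPH1, the cytosolic HSP110 exchange factors for HSP70, differed from HSPA8 in how control replicate 2 behaved. HSPH1 stood at 19.29, 18.54 and 18.90 RPKM in the libraries labelled knockdown and at 62.84, 15.59 and 60.60 in those labelled control. HSPA4 stood at 53.76, 50.03 and 49.71 RPKM against 87.29, 44.66 and 92.38. For both genes control replicates 1 and 3 were high, and control replicate 2 lay below all libraries labelled knockdown on the RPKM scale. On TMM-scaled CPM, where control replicate 2 has a factor of 0.812, that library lay just above them, at 78.7 against 71.5 to 74.6 for HSPH1 and at 282.2 against 238.9 to 260.3 for HSPA4.

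HSPH1 had a log2 fold change of −1.41 ± 0.41, which was −1.78 ± 0.07 without control replicate 2 and −0.74 ± 0.39 with composition and length trends removed, where it was no longer called. HSPA4 had −0.69 ± 0.21 and was not called (adjusted p = 0.0509, edgeR). It was −0.88 ± 0.07 and called without control replicate 2, and −0.40 ± 0.18 with the trends removed. Neither transcript shared a 50-base word with another GENCODE 29 gene, unlike the other 8.

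HSP90AA1 and HSP90AB1, the inducible and the constitutive cytosolic HSP90, did not move together. HSP90AA1 stood at 241.64, 232.60 and 231.45 RPKM in the libraries labelled knockdown and at 691.12, 268.70 and 641.09 in those labelled control. HSP90AB1 stood at 736.83, 719.57 and 709.64 RPKM against 661.20, 545.79 and 724.26. HSP90AA1 was high in control replicates 1 and 3, with control replicate 2 only slightly above the libraries labelled knockdown, whereas the groups overlapped for HSP90AB1.

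The log2 fold change of HSP90AA1 was −1.31 ± 0.30 (a 2.48-fold difference), and −1.57 ± 0.08 without control replicate 2. It lies on chromosome 14, where the median of 468 tested protein-coding genes was −0.50. WDR20, which overlaps the HSP90AA1 locus on the opposite strand in GENCODE 29, held 535 to 774 counts against 34938 to 95991 for HSP90AA1. That of HSP90AB1 was 0.00 in size to 2 decimals (−0.003 ± 0.171), and its sign depended on the scaling: 0.17 against plain library totals, with the median over all tested genes then at 0.13 in place of −0.04. The ratio of HSP90AA1 to HSP90AB1 within a library needs no scaling between libraries. It was 0.328, 0.323 and 0.326 in the libraries labelled knockdown and 1.05, 0.492 and 0.885 in those labelled control. Whether the inducible gene reached the level of the constitutive one depends on the lengths used. The exonic lengths were 5248 and 2796 bases, and the longest transcripts 3510 and 2674. Both promoters shown above hold runs of 3 heat shock element units.

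HSPB1, the small heat shock protein also called HSP27, varied little within each group on the RPKM scale. HSPB1 stood at 35.82, 36.35 and 36.64 RPKM in the libraries labelled knockdown and at 60.68, 62.37 and 56.15 in those labelled control. The groups did not overlap, and control replicate 2 was the highest library. The log2 fold change was −0.91 ± 0.15 (a 1.88-fold difference), −0.76 ± 0.08 without control replicate 2 and −1.27 ± 0.14 with the trends removed. Its longest transcript held 18.6% adenine, the lowest of the 10 genes, which reached 31.4% in HSPH1.

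HSPD1, the HSP60 barrel of the mitochondrial matrix, and its lid HSPE1, or HSP10, stood lower by similar amounts. HSPD1 stood at 199.98, 194.92 and 187.12 RPKM in the libraries labelled knockdown and at 361.85, 212.30 and 340.71 in those labelled control. HSPE1 stood at 61.91, 62.29 and 55.88 RPKM against 118.57, 78.62 and 105.76. The groups did not overlap for either gene, and control replicate 2 was the lowest control library for both.

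HSPD1 had a log2 fold change of −0.81 ± 0.19, which became −0.32 ± 0.17 and was not called with composition and length trends removed. HSPE1 had −0.91 ± 0.13, and −0.82 ± 0.18 with the trends removed. The ratio of HSPD1 to HSPE1 was 3.23, 3.13 and 3.35 in the libraries labelled knockdown and 3.05, 2.70 and 3.22 in those labelled control, with overlapping groups. The neighbour MOB4, on the HSPE1 side, was also lower (−0.94 ± 0.17, adjusted p = 0.011, edgeR). HSPE1 shared 16.0% of its 50-base words with the annotated readthrough HSPE1-MOB4, listed at 0 to 0.11 RPKM, and HSPD1 shared 16.8% with the pseudogene HSPD1P1. Rows for HSPD1 pseudogenes held 0.917% to 0.938% of the HSPD1 count in the libraries labelled knockdown and 0.723% to 0.800% in those labelled control.

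**Figure D3:**
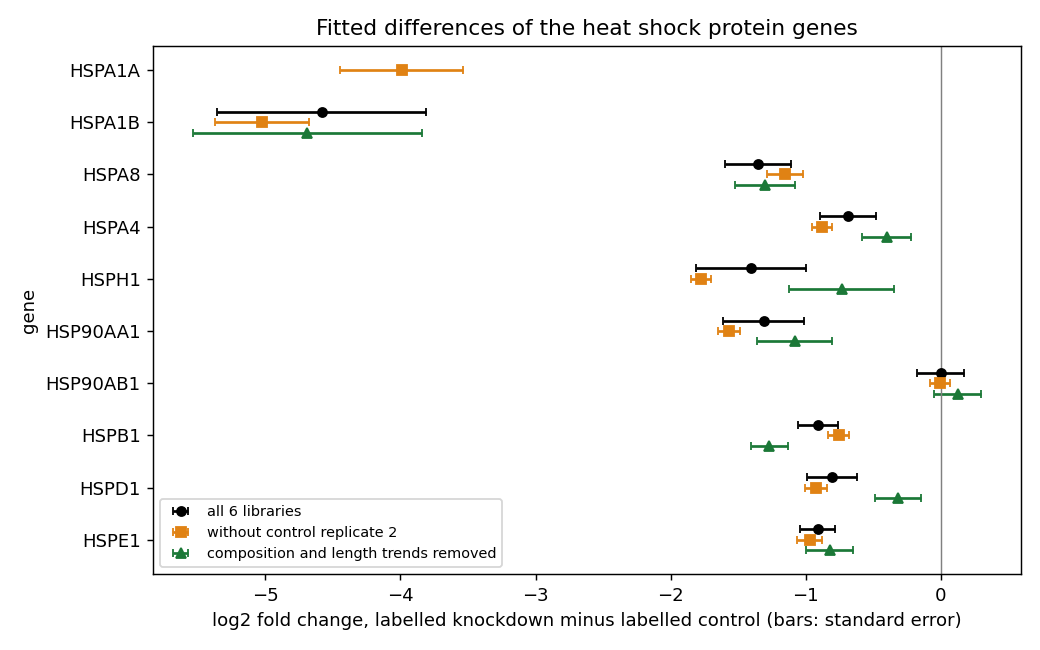
Fitted log2 fold changes (x axis, labelled knockdown minus labelled control) with standard errors for each gene, over all 6 libraries, without control replicate 2, and with base composition and length trends removed. HSPA1A passed the filter only in the fit without control replicate 2 among those drawn, at −3.99, and HSP90AB1 lies at −0.003, −0.008 and 0.12.

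**Figure D4:**
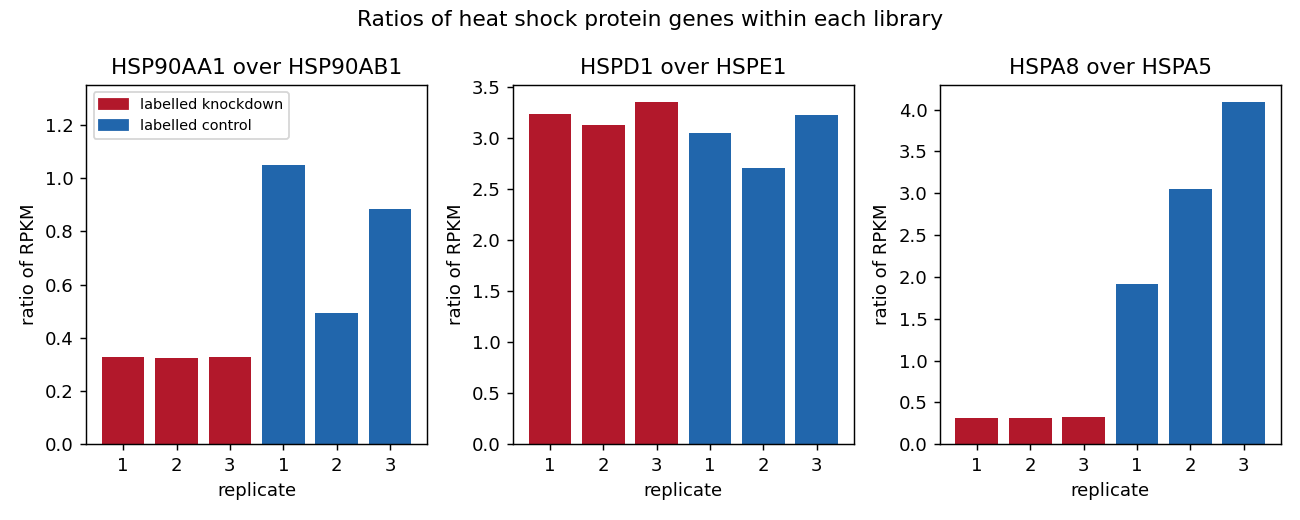
Ratios of deposited RPKM within each library for HSP90AA1 over HSP90AB1, HSPD1 over HSPE1 and HSPA8 over HSPA5; bars start at 0 and colours give the labelled group. HSPD1 over HSPE1 stays between 2.70 and 3.35, while HSPA8 over HSPA5 runs from 0.312 to 0.325 in the libraries labelled knockdown and from 1.92 to 4.09 in those labelled control.

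The order of the genes by RPKM, which is scaled to exonic length, was led by HSP90AB1 in both groups. Exonic lengths were 4849 bases for HSPA8, 5248 for HSP90AA1 and 2796 for HSP90AB1, against longest transcripts of 2463, 3510 and 2674. Exonic length thus exceeded transcript length unevenly, and the order below, HSP90AA1 before HSPA8 included, holds for exonic lengths alone. The order over transcript lengths was not tested. In the libraries labelled knockdown the order was HSP90AB1 (722.0 ± 13.8 RPKM, SD, n = 3), HSP90AA1 (235.2 ± 5.58), HSPA8 (218.5 ± 3.65), HSPD1 (194.0 ± 6.48), HSPE1, HSPA4, HSPB1 and HSPH1 (18.91 ± 0.38), each apart from the next. HSPA1A and HSPA1B followed with overlapping ranges. In the libraries labelled control HSP90AB1 (643.8 ± 90.5) overlapped HSP90AA1 (533.6 ± 231.0), which overlapped HSPA8 (485.8 ± 86.4), and HSPE1, HSPA4, HSPB1 and HSPH1 formed a chain of overlapping neighbours.

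The genes were even among the libraries labelled knockdown and uneven among those labelled control. Leaving HSPA1B aside, the coefficient of variation of TMM-scaled CPM ran from 0.793% (HSPB1) to 6.28% (HSPE1) in the libraries labelled knockdown and from 3.22% (HSP90AB1) to 51.5% (HSPH1) in those labelled control. Over all 17805 genes tested the medians were 6.02% and 24.3%, so uneven controls are a feature of the whole table. Relative to the mean of control replicates 1 and 3 on the log2 CPM scale, control replicate 2 differed by −1.67 in HSPH1, −0.99 in HSP90AA1, −0.69 in HSPA4, −0.41 in HSPD1, −0.19 in HSPE1, −0.03 in HSP90AB1, 0.41 in HSPB1 and 0.54 in HSPA8. It lay below both other control libraries for 6 of the 9 genes tested and above both for 2, against 44.2% and 42.8% of all genes tested.

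The genes around this chaperone set were taken from 8 lists of 73 genes, of which 63 were tested. Of these, 12 were lower and 4 higher by edgeR with TMM (14.7% and 9.29% of all genes tested). That balance depended on the scaling, with 4 lower and 7 higher against plain library totals (9.26% and 10.6% of all genes) and the same counts by limma-trend with a pseudocount of 1 (8.58% and 12.9%) or 0.1 (8.59% and 11.4%). The balance over all genes moved likewise, from 2613 lower and 1654 higher with TMM to 1649 lower and 1888 higher against plain totals. In each of these 3 fits 8 of the 16 genes called with TMM were not called, namely HSPA2, DNAJA1, DNAJB1, DNAJB6, BAG5, AHSA1, CACYBP and YME1L1. The 63 genes had a median log2 fold change of −0.24 against −0.04 over all genes with TMM. By DESeq2 19 were lower and 6 higher (15.3% and 11.7% of all genes). Without control replicate 2 the counts were 29 lower and 10 higher (25.6% and 22.9% of all genes), and all 16 genes called with 6 libraries were among them. With composition and length trends removed 9 of those 16 were still called.

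The heat shock factors are the transcription factors of the response. HSF2, a partner of HSF1 active in development, was lower, at 16.47, 16.27 and 17.67 RPKM in the libraries labelled knockdown and 26.49, 28.49 and 26.68 in those labelled control (log2 fold change −0.89 ± 0.15, adjusted p = 0.00802, edgeR). The groups did not overlap, and the value was −0.48 ± 0.11 and still called with composition and length trends removed. HSF1, the main regulator of heat-induced transcription, was listed at only 0.47 to 1.31 RPKM, with control replicate 1 highest and control replicate 2 lowest. It was not called (−0.72 ± 0.36, adjusted p = 0.184, edgeR). Whether reads of this gene were lost in counting was not tested.

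Among 16 J-domain proteins and other HSP70 co-chaperones, 5 were lower and 11 were not called (14.7% of all genes tested were called lower). The 5 were the J-domain proteins DNAJC7 (−1.40 ± 0.26), DNAJA1 (−0.84 ± 0.18), DNAJB1 (−0.67 ± 0.13), the heat-inducible HSP40, and DNAJB6 (−0.56 ± 0.11), and the exchange factor BAG5 (−0.52 ± 0.12), with adjusted p of 0.0106 to 0.0201 by edgeR. DNAJB1 stood at 34.21, 33.86 and 32.78 RPKM against 56.62, 36.32 and 50.12, so control replicate 2 again lay nearest to the libraries labelled knockdown. With composition and length trends removed DNAJA1 stood at −0.17 ± 0.17 and was not called, and DNAJB6 stood at −0.90 ± 0.18. Of the 5, DNAJC7 alone was also called against plain library totals. BAG3, another HSF1 target, was at 25.54 to 26.78 RPKM in the libraries labelled knockdown and 26.46, 6.66 and 25.82 in those labelled control, and was not called.

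Of 14 HSP90 co-chaperones, 3 were lower and 11 were not called (14.7% of all genes tested were called lower). SUGT1, an adaptor between HSP90 and ubiquitin ligases, had −1.24 ± 0.14 (adjusted p = 0.00212, edgeR), AHSA1, the activator of the HSP90 ATPase, −0.83 ± 0.19 and CACYBP, a Siah-interacting protein, −0.69 ± 0.14. With composition and length trends removed AHSA1 was no longer called and CACYBP turned to 0.29 ± 0.12, also not called. CHORDC1, an HSP90-binding protein, stood at −1.23 ± 0.37 and was not called (adjusted p = 0.0517).

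Other heat shock proteins and their mitochondrial partners did not share one direction. HSPA5, the HSP70 of the endoplasmic reticulum, was higher, at 711.43, 686.42 and 675.37 RPKM against 280.19, 174.53 and 94.39 (1.73 ± 0.39, adjusted p = 0.0218, edgeR). HSP90B1, its HSP90 counterpart, stood at 189.10, 184.95 and 184.21 RPKM against 387.66, 410.11 and 183.59. It was not called (−1.03 ± 0.36, adjusted p = 0.0791, edgeR), with control replicate 3 at the level of the libraries labelled knockdown. TRAP1, the mitochondrial HSP90, was higher (0.52 ± 0.12, adjusted p = 0.0204), while the mitochondrial HSP70 gene HSPA9 was not called (−0.29 ± 0.16). HSPA2, an HSP70 best known from the testis, was lower (−0.83 ± 0.16), and the small heat shock protein gene HSPB6 was higher (1.08 ± 0.23) at 1.44 RPKM or less. The mitochondrial disaggregase CLPB was higher (1.05 ± 0.14, adjusted p = 0.00306), and the import motor subunit DNAJC19 (−0.71 ± 0.17) and the inner membrane protease YME1L1 (−0.44 ± 0.13) were lower. TRAP1, HSPB6, DNAJC19 and YME1L1 were no longer called with composition and length trends removed. The heat-inducible genes SERPINH1, UBB, HMOX1 and MT2A ran from −0.14 (UBB) to 0.23 (SERPINH1) and were not called by edgeR or DESeq2, nor at an unadjusted p of 0.05.

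**Figure D5:**
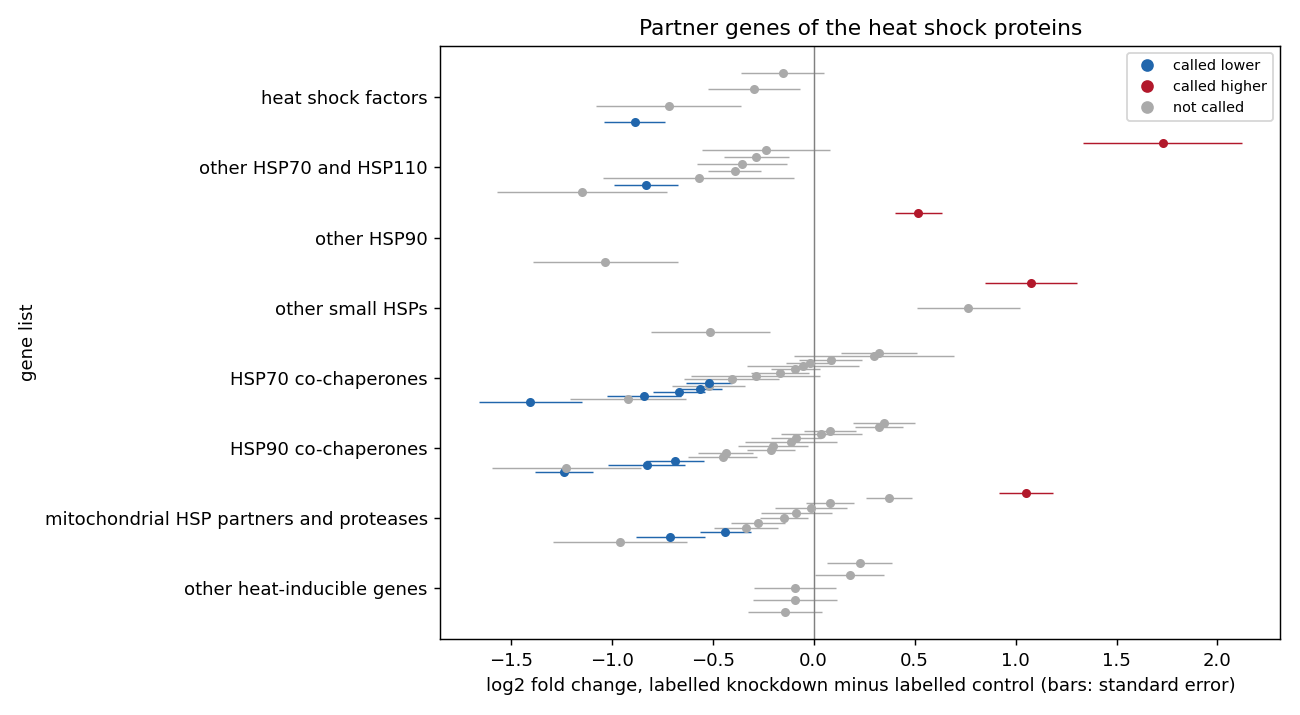
Log2 fold changes with standard errors (x axis) of the 63 tested partner genes, by list; blue points were called lower, red points higher and grey points were not called by edgeR. The largest rise is HSPA5 at 1.73 and the largest called decrease is DNAJC7 at −1.40, a gene listed at 1.99 RPKM or less.

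Outside these lists, the genes whose pattern over the 6 libraries was nearest to the median pattern of the 9 tested chaperone genes were UAP1 and PGM3, enzymes of UDP-N-acetylglucosamine synthesis, FABP5, a fatty acid binding protein, HNRNPA2B1, an RNA-binding protein, and MTIF2, a mitochondrial translation initiation factor. Likeness was the Euclidean distance between log2 CPM profiles centred on their mean, over 7639 genes with at least 5 RPKM on average. The distances were 0.133 to 0.157, against a median of 1.32. UAP1 stood at 108.1, 77.9 and 92.8 CPM in the libraries labelled control, against 51.2, 52.6 and 48.9 in those labelled knockdown. Its control replicate 2 was the lowest control library and still above the libraries labelled knockdown, as for HSPD1 and HSPE1.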

How the data were processed

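RNA sequencing of 3 libraries labelled TRDMT1 gene knockdown and 3 labelled control was used as 1 deposited table of 57773 genes. Per the file headers, it held read counts per gene, not normalized, and RPKM values that the authors scaled to exonic length and library total; recomputed RPKM differed by at most 0.005. Per the labels' protocols, RNA was depleted of ribosomal RNA and treated with an RNA methylation (bisulfite) kit before stranded library construction; whether the counted libraries were so treated, and the aligner and strand setting, are not given in the sources used here. The submitters' processing notes name HTSeq 0.6.1 and hg19 with no role. The second names of the table's columns, given in the sample descriptions, read the other way round from the titles; each column was tied to its sample by that name.

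Counts were tested with edgeR 4.0.16 (R 4.3.3; TMM, filterByExpr, robust quasi-likelihood F test, both groups in 1 fit, Benjamini-Hochberg over 17805 genes, threshold 0.05). The standard errors given were the size of the log2 fold change divided by the square root of its F statistic. CPM used the TMM-scaled library sizes. Composition and length trends were smooth terms per library (mgcv 1.9.3) on GENCODE 29 transcripts, available for 97.2% of tested genes, used as offsets. DESeq2 1.42.0, limma 3.58.1 on log2(RPKM + 1), further filters and scalings, the replicate number as a block, and fits with 1 library omitted were the alternatives. The fit was tested on simulated data. Wilson intervals (95%) and exact intervals cover counting error only. No 2 libraries agreed within sampling noise, and each was kept as 1 sample. The 10 genes, the partner lists and the tests were chosen with earlier results of these data known. Named were the 10 genes, TRDMT1, HSF1 and HSF2, every partner gene past the threshold, pseudogenes and overlapping transcripts of the 10, the 5 genes of nearest pattern, and examples chosen after their values were seen. Some genes of the marker and partner lists are not reported here. Sequences are RefSeq's, from GRCh38.p14.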

Additional observations from a re-analysis of the deposited data

How the results depend on the processing

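The median log2 fold change of the tested chaperone genes stayed between −0.70 and −1.13 over all 16 alternatives, against −0.91 as reported. The number of them called lower was 7 as reported (14.7% of all genes), 4 with plain library totals (9.26%), 3 with limma-trend on log2(RPKM + 1) (8.58%) and 4 on log2(RPKM + 0.1) (8.59%). The 7 include HSPA1B, which passed the filter through the control libraries alone. Leaving out 1 library in turn gave 1 to 9 of them, with 1 to 3 when it was a library labelled knockdown (4.96% to 5.43%), 4 without control replicate 1 (7.32%), 9 without control replicate 2 (25.6%) and 6 if control replicate 3 was omitted (16.8%). Of all genes tested 4267 were called as reported and 1191 to 9063 with 1 library left out: 1191 to 1315 without a library labelled knockdown, 2044 without control replicate 1 and 9063 without control replicate 2. Partner genes called in either direction numbered 16 of 63 as reported, against 24.0% of all genes tested. By DESeq2 they numbered 25 (15.3% lower and 11.7% higher over all genes). With 1 library left out they ran from 2 to 39 and moved as the counts over all genes did. There were 2 each without knockdown replicates 1 and 2, 3 without knockdown replicate 3 and 7 without control replicate 1. Without control replicate 2 there were 39 (25.6% lower and 22.9% higher over all genes). The libraries share replicate numbers in their titles. Deviations from the group means correlated at −0.04, 0.057 and 0.001 between libraries of the same number, so no pairing by number was seen. Whether libraries of the same number shared a culture or batch was not tested. With the replicate block 2976 genes, 6 of the chaperone genes (HSPD1 was lost) and 12 partner genes were called. The low counts of HSPA1A and HSPA1B limit their precision.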
